A study of Mus musculus with 8 samples.

Results

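The stem cell Hox, Meis and related factors are 9 transcription factor genes, Hoxa5, Hoxa7, Hoxa9, Hoxa10, Hoxb4, Meis1, Mecom, Hlf and Mef2c, of 18193 genes with a probe set assigned to a single gene symbol. They were found by taking every single-symbol probe set of the array whose annotated symbol was among these names. This gave 22 probe sets: 5 for Mef2c, 3 each for Meis1 and Mecom, 2 each for Hlf, Hoxa5, Hoxa9, Hoxa10 and Hoxb4, and 1 for Hoxa7. Their signals were read in 2 kinds of sorted mouse bone marrow progenitor, the granulocyte-macrophage progenitor (GMP), which gives rise to granulocytes and macrophages, and the common myeloid progenitor (CMP), from which GMP and the megakaryocyte and red cell lineages derive. The 4 groups were G4/G5 TERTER/ER GMP, G0 TERTER/+ GMP, G4/G5 TERTER/ER CMP and G0 TERTER/+ CMP, each with 2 arrays. G4/G5 mice are late generations homozygous for a TERTER allele, a tamoxifen-inducible form of telomerase reverse transcriptase, and were labelled as having short telomeres. G0 mice carried the same allele in heterozygous form and were labelled normal, so all groups held at least 1 TERTER allele. All mice were male, of a mainly C576BL/6 background in the labels' spelling, and their ages were matched between genotypes but not stated in the sources used here. Every array came from a pool of 4 mice, and the G4/G5 label joins 2 generations. Replicates were therefore pools, and all p-values measure the spread between 2 pools per group. Whether the CMP and GMP pools of a number came from the same mice was not given in the sources used here.

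Hox proteins are homeodomain transcription factors encoded in clusters and best known for patterning the body axis. In blood formation the Hoxa cluster and Hoxb4 are active in stem and early progenitor cells and are switched off as cells mature. Meis1 is a homeodomain partner that binds DNA together with Hoxa9 and Pbx proteins, and the pair of Hoxa9 and Meis1 is a known driver of mouse leukaemia. Mecom encodes the zinc finger factor Evi1, Hlf is a bZIP factor of the PAR family, and both mark and sustain hematopoietic stem cells. Mef2c is a MADS-box factor active in early lymphoid and myeloid progenitors and in megakaryocytes.

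RefSeq gives 13 annotated starts for these 9 genes on mouse assembly GRCm38.p6, and the 250 bases before 4 of them are printed here. Meis1, Mecom and Mef2c are shown because they differed between the cell types, and Hoxa9 because its test did not pass. Mecom and Mef2c have further annotated starts, and 1 window of each is printed. Each is written 5′ to 3′ on the strand of its gene, and the capitals in Mecom mark the single match to a Meis site.
Meis1, chr11:19018970-19019219, minus strand: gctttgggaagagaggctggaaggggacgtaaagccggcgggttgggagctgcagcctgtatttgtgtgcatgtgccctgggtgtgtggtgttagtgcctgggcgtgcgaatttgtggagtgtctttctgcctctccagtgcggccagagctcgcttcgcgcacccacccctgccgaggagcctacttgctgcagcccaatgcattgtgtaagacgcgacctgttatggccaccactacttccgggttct
Mecom, chr3:30013205-30013454, minus strand: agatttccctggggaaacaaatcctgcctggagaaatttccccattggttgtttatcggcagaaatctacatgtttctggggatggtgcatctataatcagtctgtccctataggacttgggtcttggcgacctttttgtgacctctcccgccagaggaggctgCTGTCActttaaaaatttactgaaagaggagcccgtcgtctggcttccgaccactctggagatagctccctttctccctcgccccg
Mef2c, chr13:83503784-83504033, plus strand: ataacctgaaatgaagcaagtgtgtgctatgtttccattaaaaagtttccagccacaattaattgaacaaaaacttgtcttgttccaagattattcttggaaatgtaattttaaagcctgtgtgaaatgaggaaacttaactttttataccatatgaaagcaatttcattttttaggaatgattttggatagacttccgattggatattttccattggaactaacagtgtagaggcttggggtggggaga
Hoxa9, chr6:52227371-52227620, minus strand: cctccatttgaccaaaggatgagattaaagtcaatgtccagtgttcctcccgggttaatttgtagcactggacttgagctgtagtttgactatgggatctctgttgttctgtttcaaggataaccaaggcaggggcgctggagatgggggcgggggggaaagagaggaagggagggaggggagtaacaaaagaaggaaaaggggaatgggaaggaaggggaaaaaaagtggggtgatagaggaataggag
Guanine and cytosine made up 59.6% of the Meis1 window, 50.4% of the Mecom window, 33.6% of the Mef2c window and 49.6% of the Hoxa9 window, against a median of 52.4% over 32851 such windows. CpG pairs numbered 13 before Meis1, 8 before Mecom, 1 before Mef2c and 3 before Hoxa9, against a median of 6. The other Mecom window had 50.8% guanine and cytosine and 14 CpG pairs. The other Mef2c windows had 44.8% and 49.6%, with 6 and 4 CpG pairs. Both strands of the 13 member windows were searched for 5 motifs. The Meis site TGACAG was found in 1 of them and in 15.9% of all windows. It stands in the printed Mecom window on the opposite strand, as CTGTCA, from 86 to 81 bases before the start. The Hox-Pbx site TGATTNAT, the PAR bZIP site TTACGTAA, the GATA site AGATAA and the MEF2 site were in 0 of the 13, and in 2.82%, 0.113%, 9.99% and 0.508% of all windows. These letters are a description of the windows and say nothing of binding.

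The values were probe-set signals on a linear scale with a median of 14.3 to 18.5 per array, where 31.6% to 35.2% of probe sets were at 50 or above. A gene entered the tests if 2 or more arrays showed a probe set of it at 50 or above, and was represented by its brightest probe set. This held for 8886 genes, among them 8 of the 9 factors and 16 of their 22 probe sets. Changes are given on the scale log2(signal + 10), which understates those of dim genes, and are called where limma's adjusted p was under 0.05. The labelled cell types were set against marker lists. The summed signal of 10 genes of granulocyte-monocyte progenitors, such as Mpo and Elane, was 39306 and 39944 in G4/G5 GMP and 34572 and 34539 in GMP of G0 mice, against 28611 and 26434 in G4/G5 CMP and 8999 and 18540 in G0 CMP. The sum of 7 erythroid genes ran from 649 to 1351 in the 4 GMP arrays and from 3326 to 5107 in the 4 CMP arrays, and that of 7 megakaryocyte genes from 355 to 623 and from 898 to 3121. The summed signal of 10 neutrophil genes, such as S100a8 and Ngp, was 29651 and 32271 in G4/G5 GMP, against 1464 and 3346 in GMP of G0 mice. In CMP it was 56526 and 214 in G4/G5 pools 1 and 2, against 294 and 290 in the G0 pools. Pool 1 of G4/G5 CMP thus stood apart from the other CMP arrays in this list. G0 CMP pool 2 stood apart in immediate early genes, with Fos at 3266, where the other 7 arrays read at most 136.6.

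Of the factors, Meis1, Mef2c and Mecom were lower in GMP than in CMP in both genotypes, and none was higher. In G4/G5, 3 of 8 tested factors passed as lower, where 6.29% of all genes did, and 0 passed as higher, where 4.18% did. In G0, the same 3 of 8 passed as lower, where 10.2% of all genes did, and 0 as higher, where 10.6% did. The median change of the 8 was -0.9997 in G4/G5 and -1.13 in G0, against -0.04 and -0.02 over all genes tested. The probe sets that stand for Mecom, Hlf and Hoxa7 reached the signal filter through CMP arrays alone, with at most 1 GMP array at 50 or above. The filter thus favours a lower reading in GMP for these 3, and the counts and medians over the 8 are a description. A second, dimmer Hlf probe set was at 50 or above on all 8 arrays. With 4 factors, Meis1, Mecom, Hlf and Mef2c, every GMP array lay below every CMP array, which held for 17.5% of all genes, and 0 factors lay the other way, against 14.8%. Of these 4, Mecom and Hlf were read from probe sets that reached the filter through CMP alone. In sorted bulk samples, fewer cells that express a gene and less RNA per cell cannot be told apart.

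**Figure D1:**
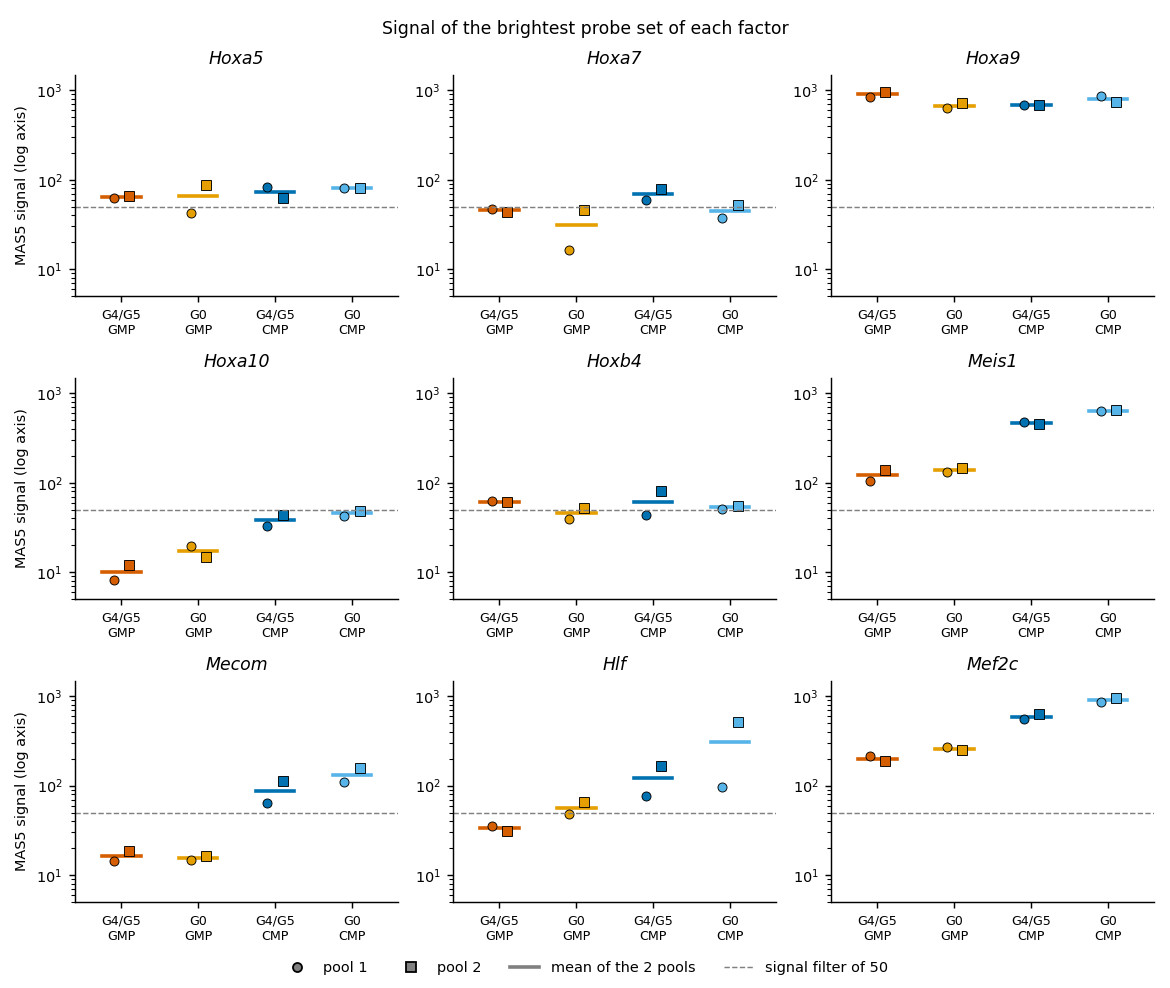
MAS5 signal of the brightest probe set of each of the 9 factors on a log axis, with 1 point per pool, a bar at the mean of the 2 pools and a dashed line at the signal filter of 50. Meis1, Mecom, Hlf and Mef2c are lower on all 4 GMP arrays than on all 4 CMP arrays, Hoxa9 lies between 633 and 963 everywhere, and no Hoxa10 array reaches 50.

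Meis1, the Hox partner, read 104 and 138 in G4/G5 GMP pools 1 and 2, against 473 and 453 in G4/G5 CMP. In G0 it read 133 and 148 in GMP, against 635 and 645 in CMP. Its order of groups was G4/G5 GMP, G0 GMP, G4/G5 CMP and G0 CMP, lowest first. The pools of G4/G5 GMP and G0 GMP overlapped, and those of every other neighbouring pair did not. The change of GMP over CMP was -1.86 ± 0.16 (log2, SE) in G4/G5, 3.64-fold lower (limma, adjusted p = 0.00107). In G0 it was -2.11 ± 0.16, 4.33-fold lower (limma, adjusted p = 0.000682). A second probe set of Meis1 passed as well, at -2.38 in G4/G5 and -2.31 in G0. The other Meis1 probe set read at most 35.5 and was not tested.

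Mef2c read 214 and 187 in G4/G5 GMP, against 551 and 633 in G4/G5 CMP. It read 268 and 252 in G0 GMP, against 862 and 968 in G0 CMP. No pair of the 4 groups overlapped, and their order was that of Meis1. GMP over CMP was -1.52 ± 0.14 in G4/G5, 2.86-fold lower (limma, adjusted p = 0.00132), and -1.78 ± 0.14 in G0, 3.42-fold lower (limma, adjusted p = 0.000810). All 5 Mef2c probe sets passed as lower in both genotypes. They ranged from -1.52 to -1.12 in G4/G5 and from -2.15 to -1.34 in G0, with adjusted p at most 0.0185 and 0.0137.

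Mecom read 14.3 and 18.8 in G4/G5 GMP, against 64.6 and 111.6 in G4/G5 CMP. In G0 it read 14.8 and 16.3 in GMP, against 108.6 and 157 in CMP. The GMP readings lay near the median signal of an array and the CMP readings all exceeded 50. The 2 GMP groups overlapped, and so did the 2 CMP groups. GMP over CMP was -1.85 ± 0.31 in G4/G5 (limma, adjusted p = 0.0121) and -2.46 ± 0.31 in G0 (limma, adjusted p = 0.00321). The size rests on the pseudocount, at -2.30 and -2.99 with 1 and -1.28 and -1.78 with 32, and no fold is given for it. The G4/G5 call was lost without G4/G5 GMP pool 1 (-1.72, limma adjusted p = 0.131) or pool 2 (-1.97, 0.0736), and the G0 call without G0 GMP pool 1 (-2.42, limma adjusted p = 0.0526). Both other Mecom probe sets were dim everywhere, with highest signals of 13.9 and 7.82.

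Of the 8 tested factors, Hlf had the widest gap between pools of a group. It read 35.8 and 31.2 in G4/G5 GMP, against 76.0 and 166 in G4/G5 CMP. In G0 it read 48.6 and 65.3 in GMP, against 97.2 and 515 in CMP, a ratio of 5.30 between the CMP pools. G0 CMP pool 2, the array with the high Fos signal, also had an Egr1 signal of 1920 and a Jun signal of 502, where pool 1 of that group had 254 and 33.2. The part of that in the Hlf signal was not tested. GMP over CMP was -1.50 ± 0.64 in G4/G5 and -1.84 ± 0.64 in G0, and neither passed (limma, adjusted p = 0.161 and 0.0747). With the pool number as a block within each cell type both passed (limma, adjusted p = 0.0328 and 0.0139), and with a block shared by the cell types the G0 change did (limma, adjusted p = 0.0369). Without G0 CMP pool 1 both passed, at -1.50 and -2.98 (limma, adjusted p = 0.0272 and 0.00963), where the G0 CMP group is the high-Fos array alone with Hlf at 515 and its spread is taken from the other groups. Without G0 CMP pool 2 the G4/G5 change passed (limma, adjusted p = 0.0292) and that in G0 was -0.69 (0.295). Leaving out G4/G5 CMP pool 2 brought the G4/G5 change to -0.99 (limma, adjusted p = 0.430). The second Hlf probe set read 63.2 and 60.1 in G4/G5 GMP, against 108 and 160 in G4/G5 CMP, and 62.2 and 66.1 in G0 GMP, against 105 and 247 in G0 CMP. Fitted on its own it passed in G0 (-1.22, limma adjusted p = 0.0405) and not in G4/G5 (-0.98, 0.108).

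Hoxa9, the Hox gene most used with Meis1 in leukaemia models, read 832 and 963 in G4/G5 GMP, against 692 and 682 in G4/G5 CMP. In G0 it read 633 and 715 in GMP, against 869 and 745 in CMP. G4/G5 GMP pools lay above the G4/G5 CMP pools, which held for 27.7% of all genes. G0 GMP pools lay below the G0 CMP pools, which held for 33.1%. The changes were 0.38 ± 0.14 and -0.25 ± 0.14, and neither passed (limma, adjusted p = 0.117 and 0.223). With arrays centred on their medians, which moved the median of all genes to 0.11 in G4/G5, Hoxa9 was 0.52 there (limma, adjusted p = 0.0479). The second Hoxa9 probe set read 109 and 106 in G4/G5 GMP, against 107 and 114 in G4/G5 CMP, and 111 and 131 in G0 GMP, against 131 and 153 in G0 CMP. Its changes were -0.03 and -0.22.

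The remaining Hox genes were close to the filter, and 0 of the 3 tested passed in either genotype. Hoxa5, which acts in embryonic patterning and in blood progenitors, read 63.0 and 65.6 in G4/G5 GMP, against 83.1 and 62.5 in G4/G5 CMP, and 42.3 and 87.8 in G0 GMP, against 80.2 and 80.4 in G0 CMP. Hoxa7 read 47.5 and 43.6 in G4/G5 GMP, against 59.2 and 78.8 in G4/G5 CMP, and 16.6 and 46.4 in G0 GMP, against 37.3 and 52.1 in G0 CMP. Hoxb4, which expands blood stem cells when overexpressed, read 62.3 and 60.4 in G4/G5 GMP, against 43.2 and 80.0 in G4/G5 CMP, and 39.3 and 51.7 in G0 GMP, against 51.3 and 54.3 in G0 CMP. In each of these genes the range of at least 1 GMP group met that of the CMP group of its genotype. The changes of GMP over CMP were -0.15 and -0.34 for Hoxa5, -0.50 and -0.49 for Hoxa7 and 0.04 and -0.19 for Hoxb4, in G4/G5 and G0 in that order. Their 95% intervals all held 0, and those of Hoxa7 ran from -1.33 to 0.34 in G4/G5 and from -1.32 to 0.35 in G0. Hoxa10, a neighbour of Hoxa9 in the cluster, reached at most 48.0 and was not tested in the main fit. It read 8.17 and 12.1 in G4/G5 GMP, against 32.8 and 43.4 in G4/G5 CMP, and 19.6 and 14.8 in G0 GMP, against 42.9 and 48.0 in G0 CMP. With no signal filter its change was -1.25 in G4/G5 and -1.03 in G0 (limma, adjusted p = 0.0552 and 0.0642).

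**Figure D2:**
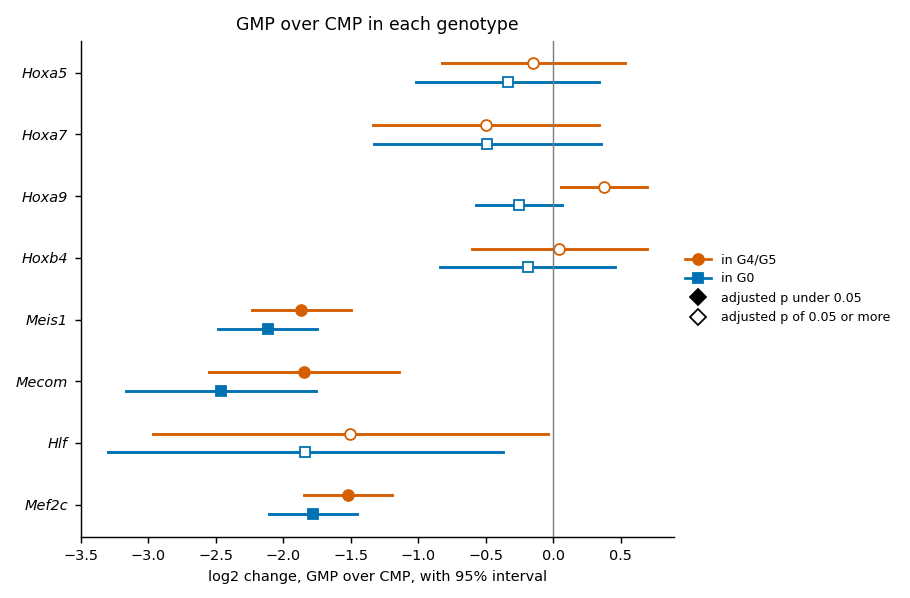
Log2 change of GMP over CMP for the 8 tested factors, in G4/G5 (circles) and in G0 (squares), with 95% intervals as lines and filled symbols where limma's adjusted p was under 0.05. Meis1, Mecom and Mef2c are filled in both genotypes, between -2.46 and -1.52, and the intervals of Hoxa5, Hoxa7 and Hoxb4 cross 0.

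**Figure D3:**
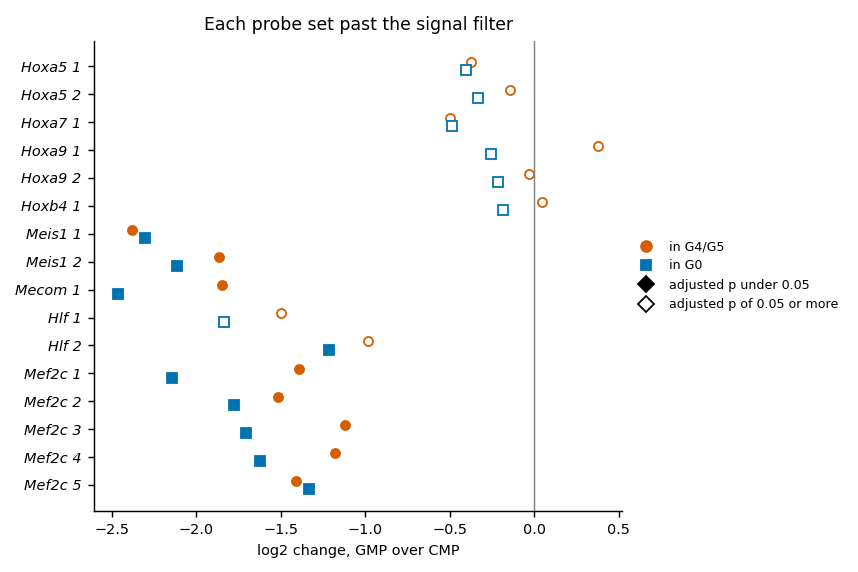
Log2 change of GMP over CMP for each of the 16 probe sets past the signal filter, numbered within their gene, in G4/G5 (circles) and G0 (squares), with filled symbols where limma's adjusted p was under 0.05 over all probe sets. The 5 Mef2c and 2 Meis1 probe sets are filled in both genotypes, while those of Hoxa5, Hoxa7, Hoxa9 and Hoxb4 lie between -0.50 and 0.38.

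Genes that work with these factors were followed in 6 lists. Some list counts in GMP over CMP are also given with a pool block or with 1 array left out. In each such fit the number called over all genes rose or fell along with the list count. Of 34 other Hox cluster genes, 2 were tested, Hoxb2 and Hoxb3, and 0 passed in any comparison of the main fit. Pool blocks within cell types called 1 of the 2 in GMP over CMP of G4/G5, where 16.5% of all genes passed. The Hoxb3 probe set used reached the filter through CMP arrays alone, so the filter favours its lower reading in GMP. Among 5 tested Hox cofactors, Pbx3, a TALE homeodomain protein that binds with Hoxa9 and Meis1, was lower in GMP than in CMP. It read 78.0 and 63.0 in G4/G5 GMP, against 141 and 185 in G4/G5 CMP, and 67.4 and 74.8 in G0 GMP, against 178 and 177 in G0 CMP. The change was -1.10 ± 0.19 in G4/G5 and -1.21 ± 0.19 in G0 (limma, adjusted p = 0.0131 and 0.00670). The main fit thus called 1 of 5 cofactors in each genotype, where 10.5% of all genes passed in G4/G5 and 20.8% in G0. Pool blocks within cell types called 2 cofactors in each genotype in place of 1, where 16.5% and 26.5% of all genes passed. The G4/G5 count was 2 without G4/G5 CMP pool 1 and 0 without either G4/G5 GMP pool, and the G0 count was 0 without G0 GMP pool 1.

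Kmt2a, the MLL histone methyltransferase that maintains Hoxa cluster transcription, was 1 of 17 tested regulators of Hox genes. It read 161 and 199.97 in G4/G5 GMP, against 281 and 341 in G4/G5 CMP, and 171 and 186 in G0 GMP, against 366 and 366 in G0 CMP. It passed as lower in both genotypes, at -0.75 ± 0.16 and -0.999 ± 0.16 (limma, adjusted p = 0.0274 and 0.00726), and was the only regulator to pass in G4/G5. In G0, Mllt3 (-0.86), an elongation partner of MLL, and Psip1 (-0.64), which tethers MLL to chromatin, also fell, and Dpy30 (0.73), a core subunit of MLL complexes, rose. The Mllt3 probe set used reached the filter through CMP arrays alone, so the filter favours its lower reading in GMP. In the main fit, 0 regulators were higher and 1 lower in G4/G5, where 10.5% of all genes passed. In G0, 1 was higher and 3 were lower, where 20.8% of all genes passed. With blocks within cell types, 5 regulators passed in G4/G5 and 7 in G0, where 16.5% and 26.5% of all genes did. In G4/G5 the count was 3 without G4/G5 CMP pool 1, 0 without G4/G5 CMP pool 2 or any 1 of the 4 GMP arrays, and 2 when either G0 CMP pool was left out. In G0 it was 7 without either G4/G5 CMP pool, 2 without G0 GMP pool 2 or either G4/G5 GMP pool, and 0 without G0 GMP pool 1.

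Of 14 tested genes known as targets of Hoxa9 or Meis1 in mouse leukaemia, 4 were lower in GMP in G4/G5 and 6 in G0, and 0 were higher, where 6.29% and 10.2% of all genes were lower. The list's median change was -0.92 and -0.50, against -0.04 and -0.02 over all genes. Trib2, a pseudokinase gene, read 4.13 and 12.7 in G4/G5 GMP, against 238 and 118 in G4/G5 CMP, and 37.7 and 39.4 in G0 GMP, against 341 and 143 in G0 CMP. It changed by -3.31 ± 0.45 and -2.26 ± 0.45 (limma, adjusted p = 0.00517 and 0.0128), and by -1.66 and -2.85 in G0 without G0 CMP pools 1 and 2. The Trib2 probe set used also reached the filter through CMP arrays alone. The SOX factor Sox4 (-1.25 and -1.17) and the nuclear factor Dach1 (-1.01 and -1.75) passed in both genotypes. Bcl2, which blocks apoptosis, passed in G4/G5 (-0.97) and the receptor gene Flt3 in G0 (-1.31). The G4/G5 count was 9 without G4/G5 CMP pool 1, 1 without G4/G5 GMP pool 2 and 0 without G4/G5 GMP pool 1, and it was 10 with either pool block or when either G0 CMP pool was left out. The G0 count was 3 without G0 CMP pool 2 and 1 without either G0 GMP pool.

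Of 18 other transcription regulators of stem and multipotent cells, 10 were lower in GMP in G4/G5 and 11 in G0, and 0 were higher. Erg and Lmo2 are in both this list and that of the targets, and Erg is counted as lower in G0 in both. Over all genes, 6.29% and 10.2% were lower and 4.18% and 10.6% higher. The median change of the list was -1.07 and -0.91, against -0.04 and -0.02 over all genes. Of the 18, Mycn, Gfi1b, Egr1 and Nkx2-3 were read from probe sets that reached the filter through CMP arrays alone. Mycn, a MYC family factor, read 13.3 and 15.8 in G4/G5 GMP, against 253 and 213 in G4/G5 CMP, and 46.6 and 42.1 in G0 GMP, against 396 and 318 in G0 CMP. It changed by -3.31 ± 0.19 and -2.75 ± 0.19 (limma, adjusted p = 0.000201 and 0.000537). Among the genes that passed, the next largest changes in G4/G5 were those of Gfi1b (-2.45), Gata2 (-2.19) and Nkx2-3 (-1.84), and the largest in G0 were those of Egr1 (-4.97), Mycn, Gfi1b (-1.88) and Zfp521 (-1.25). Egr1 in G0 was -3.54 without the high-Fos G0 CMP pool 2 and -6.41 without pool 1, and its call was lost without G0 GMP pool 1 (-5.30, limma adjusted p = 0.0613). Gfi1b and Gata2 are needed in red cell and stem cell programmes, and Gfi1b is also among the 7 erythroid markers. Without G0 GMP pool 1 the G0 count was 2, and without pool 2 it was 7. Without G4/G5 GMP pool 1 the G4/G5 count was 5, and without pool 2 it was 6. Among 5 tested paralogs of Mecom, Hlf and Mef2c, the PAR bZIP gene Dbp fell in G4/G5 (-0.81). In G0, Mef2a (-0.66) and the PAR bZIP gene Tef (-0.58) fell and Nfil3 (1.47), a bZIP repressor that binds the same sites, rose. The Dbp probe set used reached the filter through CMP arrays alone and that of Nfil3 through GMP arrays alone. The filter thus favours a lower reading of Dbp and a higher reading of Nfil3 in GMP. The main fit called 10.5% of all genes in G4/G5 and 20.8% in G0. With blocks within cell types, 2 paralogs passed in G4/G5, where 16.5% of all genes did. The G4/G5 count was 0 without G4/G5 CMP pool 2 or any 1 of the 4 GMP arrays, and the G0 count was 0 without G0 CMP pool 2 or either G0 GMP pool.

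**Figure D4:**
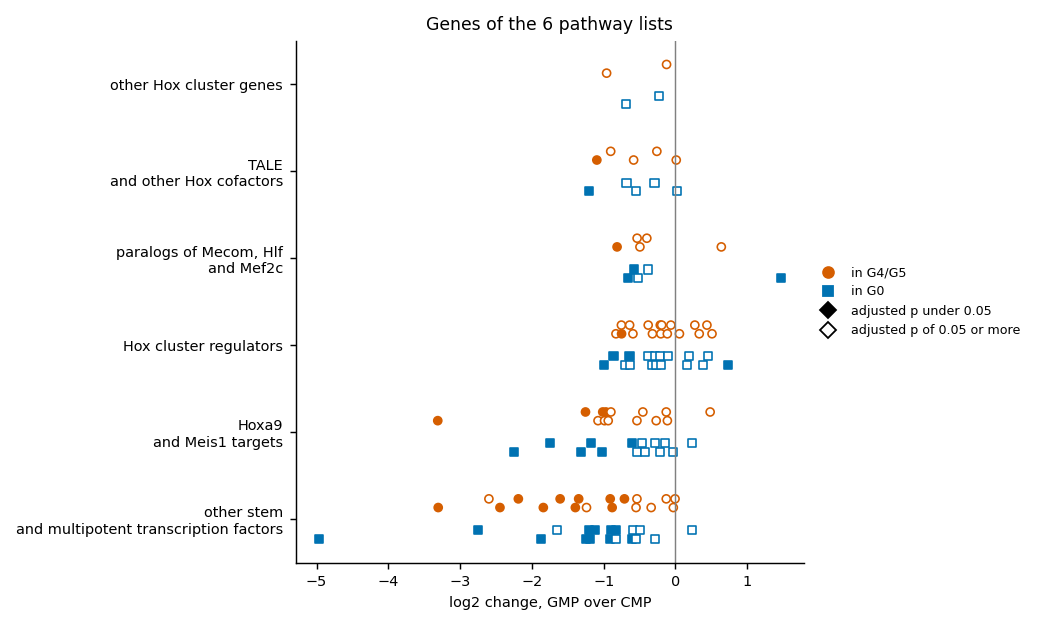
Log2 change of GMP over CMP for every tested gene of the 6 lists, in G4/G5 (circles) and G0 (squares), filled where limma's adjusted p was under 0.05. Filled symbols lie below 0 except Nfil3 and Dpy30 in G0, and the target and stem factor lists reach below -3.

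The question put by the genotypes was whether late-generation mice with short telomeres differ from G0 mice within each progenitor. In CMP, 0 of the 8 tested factors passed, where 0.0113% of all genes, 1 gene, did. At an unadjusted limma p under 0.05 there were 2 of the 8, Mef2c and Meis1, and 13.4% of all genes. The pools of both genotypes did not overlap, with G4/G5 lower, for Hoxa9, Meis1 and Mef2c, against 14.9% of all genes. They did not overlap, with G4/G5 higher, for Hoxa7, against 21.7% of all genes.

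Mef2c in CMP averaged 592 ± 58.3 in G4/G5 pools and 915 ± 74.8 in G0 pools (SD over 2 pools). The change was -0.62 ± 0.14 with a 95% interval from -0.95 to -0.29 (limma, adjusted p = 0.237). Its 5 probe sets ranged from -0.98 to -0.40, all below 0. Without G4/G5 CMP pool 1, the array with high neutrophil signal, it was -0.52 (limma, adjusted p = 0.401). Without G4/G5 CMP pool 2 it was -0.72 and passed (limma, adjusted p = 0.0470), in a fit that called 4.78% of all genes and whose G4/G5 CMP group is the neutrophil-high array alone, assumed to vary like the other groups. Meis1 averaged 463 ± 14.5 in G4/G5 CMP and 640 ± 7.32 in G0 CMP (SD over 2 pools). Its change was -0.46 ± 0.16 with an interval from -0.82 to -0.09 (limma, adjusted p = 0.319), and the second probe set gave -0.14, with G4/G5 pools at 309 and 397 and G0 pools at 400.1 and 374. Without G4/G5 CMP pool 1 it was -0.49 (limma, adjusted p = 0.472). In the same comparison, 9 of 10 markers of granulocyte-monocyte progenitors were above 0, at a median of 1.23. Their sums given above were higher in both G4/G5 CMP pools than in both G0 CMP pools. The summed signal of 9 macrophage and dendritic genes was 1700.1 and 2015 in G4/G5 CMP, against 554 and 1129 in G0 CMP, and the median of the 5 tested was 1.19. The part of these markers in the Mef2c and Meis1 values was not tested, nor that of the neutrophil signal beyond leaving out that array.

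Among the other factors in CMP, Hlf was at -0.95 ± 0.64, with an interval from -2.41 to 0.52. Without G0 CMP pool 2 the Hlf value was 0.20, and without pool 1 it was -2.09. Mecom was at -0.56 ± 0.31 and Hoxa9 at -0.22 ± 0.14. Mecom read 64.6 in the neutrophil-high pool and 111.6 in the other G4/G5 pool, and without pool 1 its value was -0.21. Hoxa7 was at 0.53 ± 0.37, Hoxb4 at 0.14 ± 0.28 and Hoxa5 at -0.14 ± 0.30, and adjusted p over all 8 factors was at least 0.237 (limma).

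In GMP, 0 of 8 factors passed, where 0% of all genes did, and 2 of 8, Hoxa9 and Mef2c, and 7.87% of all genes had an unadjusted limma p under 0.05. Hoxa9 averaged 898 ± 92.9 in G4/G5 GMP and 674 ± 58.3 in G0 GMP (SD over 2 pools). Its change was 0.41 ± 0.14, with an interval from 0.09 to 0.73 (limma, adjusted p = 0.595). The second Hoxa9 probe set had G4/G5 pools at 109 and 106 and G0 pools at 111 and 131, at -0.15. Mef2c averaged 200.4 ± 18.6 in G4/G5 GMP and 259.8 ± 11.1 in G0 GMP (SD over 2 pools), at -0.36 ± 0.14 (limma, adjusted p = 0.613). Its 5 probe sets ranged from -0.54 to 0.19. G4/G5 pools lay above G0 pools for Hoxa9 and Hoxb4, against 28.8% of all genes, and below them for Hlf and Mef2c, against 26.5%. The neutrophil sum was also higher in both G4/G5 GMP pools than in both G0 GMP pools, and its part in these values was not tested.

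Averaged over the cell types, 0 of 8 factors passed, where 0.0338% of all genes did, and Mef2c was at -0.49 ± 0.10 (limma, adjusted p = 0.156) and Meis1 at -0.33 ± 0.11 (0.216). Unadjusted limma p was under 0.05 for both, and for 17.8% of all genes. Without G4/G5 CMP pool 2 the Mef2c mean was -0.54 and passed (limma, adjusted p = 0.0227), in a fit that called 7.52% of all genes and whose G4/G5 CMP group is again the neutrophil-high array alone. The difference between the genotype effects in GMP and in CMP passed for 0 of 8 factors and 0% of all genes. It was 0.63 ± 0.20 for Hoxa9 (limma, adjusted p = 0.994), the 1 factor of 8 with an unadjusted limma p under 0.05, where 3.97% of all genes had such a p. The GMP over CMP changes in G4/G5 and in G0 described above were therefore not shown to differ for any factor. In the 6 lists, 0 genes passed in any of these 4 comparisons in the fit of all arrays. With 1 CMP array left out, between 1 and 3 genes of a list passed in some of them, with at most 2 per list when this was G4/G5 CMP pool 2, and 3 targets in the mean when it was G0 CMP pool 2. The smallest p in CMP among them was that of Dach1, at -1.13 with pools at 257 and 237 in G4/G5 and 623 and 492 in G0 (limma, adjusted p = 0.124). In GMP it was that of Mycn, at -1.15 with pools at 13.3 and 15.8 in G4/G5 and 46.6 and 42.1 in G0 (limma, adjusted p = 0.565). No GMP array read Mycn at 50 or above. The 4 GMP arrays fitted alone called some targets and other stem cell regulators, as given in the last section, where 4.05% of all genes passed.

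**Figure D5:**
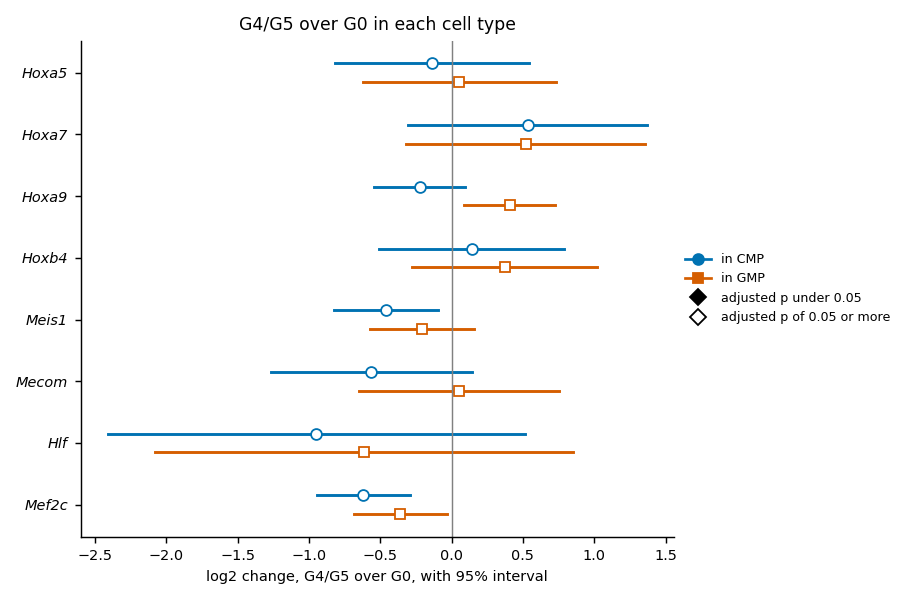
Log2 change of G4/G5 over G0 for the 8 tested factors in CMP (circles) and in GMP (squares), with 95% intervals as lines and open symbols where limma's adjusted p was 0.05 or more. All symbols are open, and the intervals that leave out 0 are those of Meis1 and Mef2c in CMP and of Hoxa9 and Mef2c in GMP.

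The 5 genes outside the set whose log2 signal followed the mean standardised log2 signal of the 8 tested factors most closely, by Pearson's r over the 8 arrays, were Atp2b4 (0.978), Castor2 (0.977), Gab1 (0.975), E430024I08Rik (0.973) and Arid1b (0.970). The 8 arrays fall into 4 GMP and 4 CMP arrays, which all of these values share. The factors did not all follow such a mean. Against the mean of the other tested factors, Hoxa9 had r = -0.003 and Hoxb4 0.325. The rest of the tested factors ran from 0.542 to 0.854. Arid1b, a subunit of SWI/SNF chromatin remodelling complexes, read 487 and 557 in G4/G5 GMP, against 579 and 819 in G4/G5 CMP, and 392 and 537 in G0 GMP, against 843 and 912 in G0 CMP. Gab1, a docking protein of receptor signalling, read 53.9 and 57.8 in G4/G5 GMP, against 71.5 and 112 in G4/G5 CMP, and 28.4 and 42.9 in G0 GMP, against 89.8 and 114 in G0 CMP.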

How the data were processed

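The deposited table held linear array intensities. Per the series text and the submitters' processing notes, the authors computed MAS5 signals from a mouse whole-genome array and scaled them to a target of 100. Per the labels, 5 to 10 ng of RNA from 5000 to 20000 sorted cells was used. No source used here gives a genome build or detection calls. Their number, 2 arrays per group, limits the precision.

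The intensities were taken as log2(signal + 10), without normalizing the arrays again. Of 45101 probe sets, 34945 had 1 gene symbol in the platform annotation, 932 several and 9160 none, and 64 were controls. The 22 probe sets of the 9 factors each had a single symbol. Genes with a probe set at 50 or more on at least 2 arrays went into limma (version 3.58.1, R 4.3.3). It fitted 1 mean per group over 8 arrays with 4 residual degrees of freedom, an intensity trend and Benjamini-Hochberg adjustment over 8886 genes. Every adjusted p and every p is two-sided and from limma. The 6 comparisons were GMP against CMP in each genotype, G4/G5 against G0 in each cell type, their mean and their difference. The fit was tested on simulated data. Python 3.11.15 with pandas 2.3.3 and matplotlib 3.10.9 made the tables and plots.

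Per the series text, same-numbered pools of both genotypes are paired within a cell type. The differences between pools correlated with r = 0.247 in CMP and 0.139 in GMP over 8886 genes, so the pool block is given where it changes a call. The factors, lists and tests were chosen with earlier results of these data known. Named genes were all 9 factors and, per list and comparison, passing genes up to the 4 with the largest change (where none passed, up to 2 with the smallest p) and the 5 genes most like the factors. Alternatives were 21 settings of pseudocount, filter, probe set choice, scaling, block, arrays in the fit, trend and arrays left out. Promoter windows are RefSeq's, on GRCm38.p6, and match these genes by symbol.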

Additional observations from a re-analysis of the deposited data

Results flagged for a closer look

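Hoxa9 was singled out because both G4/G5 CMP pools lay below both G0 CMP pools, and both G4/G5 GMP pools lay above both G0 GMP pools. Taken singly, the first held for 14.9% of all genes and the second for 28.8%. The G4/G5 effect in GMP minus that in CMP was 0.63 on the log2 scale (limma, adjusted p = 0.994), so the difference did not pass over all genes. Adjusted p was at least 0.439 in the 20 other settings run for it. The second Hoxa9 probe set had G4/G5 below G0 in both cell types, at -0.15 in GMP and -0.33 in CMP, with a difference of 0.19.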

How the results depend on the processing

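The calls of Meis1 and Mef2c in GMP over CMP held in both genotypes under all 21 other settings, and those of Mecom under all but the 3 left-out arrays named above. Of 974 single changes recomputed for the factors, 934 kept direction and side of the threshold, 3 lost their call, 9 gained one and 28 turned sign, none of them called. The count of factors called was between 2 and 4 in GMP over CMP of either genotype over the arrays left out in turn. It was between 0 and 1 in G4/G5 over G0 in CMP and in the mean of the cell types, the 1 being Mef2c without G4/G5 CMP pool 2. The pool block within each cell type gave 4 factors called as lower in GMP over CMP in each genotype, where it called 9.78% of all genes as lower in G4/G5 and 13.6% in G0, and changed no call other than that of Hlf.

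Without the x and s type probe sets, Hoxa5 in G4/G5 over G0 was 0.32 in CMP and 0.33 in the mean, and with the mean of its probe sets 0.089 and 0.14, and Hoxa9 in the mean was then -0.076. A pseudocount of 1 turned the Hoxa7 difference of effects to 0.070, median centring Hoxa5 in GMP over CMP in G4/G5 to 4.23e-05, and quantile normalization Hoxb4 in that of G0 to 0.0073. With arrays left out in turn, G4/G5 over G0 in CMP ran from -0.32 to 0.044 for Hoxa5, -0.24 to 0.52 for Hoxb4 and -2.09 to 0.20 for Hlf. In GMP it ran from -0.40 to 0.50 for Hoxa5, -0.022 to 1.06 for Hoxa7 and -0.071 to 0.17 for Mecom, and in the mean from -0.27 to 0.18 for Hoxa5. The difference of effects ran from -0.26 to 0.64 for Hoxa5, -0.55 to 0.53 for Hoxa7, -0.15 to 0.61 for Hoxb4 and -0.81 to 1.48 for Hlf. GMP over CMP in G4/G5 ran from -0.33 to 0.035 for Hoxa5 and -0.33 to 0.42 for Hoxb4, and in G0 from -0.79 to 0.11 for Hoxa5 and -1.03 to 0.057 for Hoxa7. The cause was not tested.

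Over all genes, GMP over CMP called 371 as higher and 559 as lower in G4/G5, against 728 and 373 with median centring, 596 and 869 with the block within cell types, 180 and 312 with no filter, 154 and 274 from the arrays compared alone, 9 and 56 without G4/G5 GMP pool 1, and 17 and 88 without pool 2. In G0 the 939 and 906 became 1505 and 555 with median centring, which moved the median gene to 0.15, 26 and 41 without G0 GMP pool 1, and 187 and 248 without pool 2. G4/G5 over G0 in GMP called 0 genes in the fit of all arrays. From its own 4 arrays it called 264 as higher and 96 as lower, 4.05% of all genes. It then called 0 of 8 factors, 4 of 14 tested target genes and 2 of 18 other stem cell regulators. In CMP it called 0 as higher and 1 as lower, 293 and 132 without G4/G5 CMP pool 2, and 96 and 16 without G0 CMP pool 2. For the mean and the difference of effects, which use all 4 groups, a fit of the compared arrays alone is the fit reported. Signals near or below the median of an array have the least precision. Examples are Mecom, Egr1 and Hoxa10 in GMP, and Mycn and Trib2 in G4/G5 GMP.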
